A study of Mus musculus with 27 samples.

Results

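Microglia sorted from tissue around the hematoma of antibiotic-treated mice were compared between day 7 and day 3 after intracerebral hemorrhage (ICH). The members are the 3 libraries labelled ABX ICH day 7 and the 3 labelled ABX ICH day 3, 6 of the 27 libraries of the series. Both groups are wild-type mice given an antibiotic cocktail (ABX) and an injection of collagenase, an enzyme that breaks vessel walls and so causes bleeding in the brain, and they differ in the day of collection. The other groups are ABX sham mice given the buffer PBS in place of collagenase, and specific pathogen-free (SPF) and germ-free (GF) mice with the same sham, day 3 and day 7 arms, at 3 libraries each. Shams are labelled day 7. The labels give no age, no sort markers and no count of animals per library, so p-values measure the spread between these libraries, which may be technical.

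Microglia are the resident macrophages of the brain. At rest they carry a set of surface genes, such as P2ry12, Tmem119 and Cx3cr1, through which they sense nucleotides, other cells and neurons. After injury they turn such genes down and turn up a programme of lipid handling, lysosome and adhesion genes known from disease models, with Spp1, Apoe and Clec7a among them. In hemorrhage they also take up red cells, break down heme through Hmox1 and store the iron in ferritin, made of Fth1 and Ftl1 chains. Antibiotics deplete the gut bacteria that produce short-chain fatty acids.

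From day 3 to day 7, 6 of 20 homeostatic microglia genes and 4 of 28 lysosome genes rose, beside 0.563% of all tested genes. Rises went with level, at 52 of the 141 genes above 1024 CPM (counts scaled to a common library size). All 99 rises were among the 1656 abundant genes, with a mean of at least 100 CPM. Of these lists 19 of 20 and 26 of 28 genes are abundant, so 0.563% is a low yardstick for them. Among the list rises were P2ry12, Gpr34, Siglech, Cst3 and Ctss, while other list members such as Cx3cr1 and Tmem119 did not pass. Also called higher were B2m, the tetraspanins Cd9 and Cd53, Spp1 and the chemokines Ccl4, Ccl6 and Ccl9. Genes of lower level fell, among them Slc35b2, Glb1, Itgam and Icam1. The lists of interferon, MHC class II, cell cycle and iron genes gave no call over all tested genes. Outside these lists the interferon-inducible Irgm1 was called higher and the centromere gene Cenpw lower. Among abundant genes scaled by themselves, 3 of 26 lysosome genes were higher and 10 lower, beside 3.86% and 5.19% of all abundant genes. Of 19 homeostatic genes there 6 were higher and 2 lower, with a list median of −0.90 beside 0.09. Which genes counted as lower depended on how libraries were scaled, so values are given on both of the scales described next.

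The 6 libraries hold 44279690 to 79090595 counts. They differ in makeup by day: 14146, 15252 and 14924 genes had at least 1 count at day 3 and 10184, 10997 and 14221 at day 7, so replicates 1 and 2 of day 7 stand apart from the rest. Transcripts rich in G and C were less well represented at day 7. The median log2 level of abundant genes in the top quintile of GC content, minus that of the lowest quintile, was 1.05, 0.53 and 0.95 at day 3 and −0.68, −1.02 and −0.67 at day 7. The correlation of log2 levels over abundant genes between replicates was 0.81 to 0.88 at day 3 and 0.41 to 0.58 at day 7. All 10 microglial markers were detected in all 6 libraries.

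Over all 17573 tested genes, 99 rose (0.563%) and 29 fell (0.165%) by day 7 at a Benjamini-Hochberg adjusted p under 0.05 of edgeR's quasi-likelihood test. For each of these 128 genes the 3 day 7 libraries lay wholly above or wholly below the 3 day 3 libraries. Over all tested genes such a gap was found upward for 1105 (6.29%) and downward for 3173 (18.1%). The rises were of abundant genes: 2 had a mean of 64 to 256 CPM over the 6 libraries (counts scaled to a common library size), 45 of 256 to 1024 CPM and 52 above that. The median log2 fold change, day 7 minus day 3, was −4.07 for the 2864 genes of 1 to 4 CPM, −3.71 for the 3073 of 4 to 16 CPM and 1.39 for the 141 above 1024 CPM, so scaling over all genes sets rare genes against abundant ones. A second fit was therefore made, after the data were seen, on the 1656 genes with a mean of at least 100 CPM over the 27 libraries, scaled over these genes. It moved the abundant genes' median from 1.04 to 0.09, a median shift of −0.98, and called 64 higher (3.86%) and 86 lower (5.19%). With 1 of the 6 libraries left out this fit called 22 to 66 higher and 59 to 128 lower, the 22 without day 3 replicate 3, and 22 of the 64 and 47 of the 86 were called whichever was left out. With GC offsets 10 of the 64 and 37 of the 86 stayed calls. Of the 99 rises 62 stayed calls and none changed sign, and 12 of the 29 falls were abundant enough to enter and all 12 stayed calls. Among abundant genes the libraries of the 2 days did not overlap upward for 560 (33.8%) and downward for 85 (5.13%) on the first scale.

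**Figure D1:**
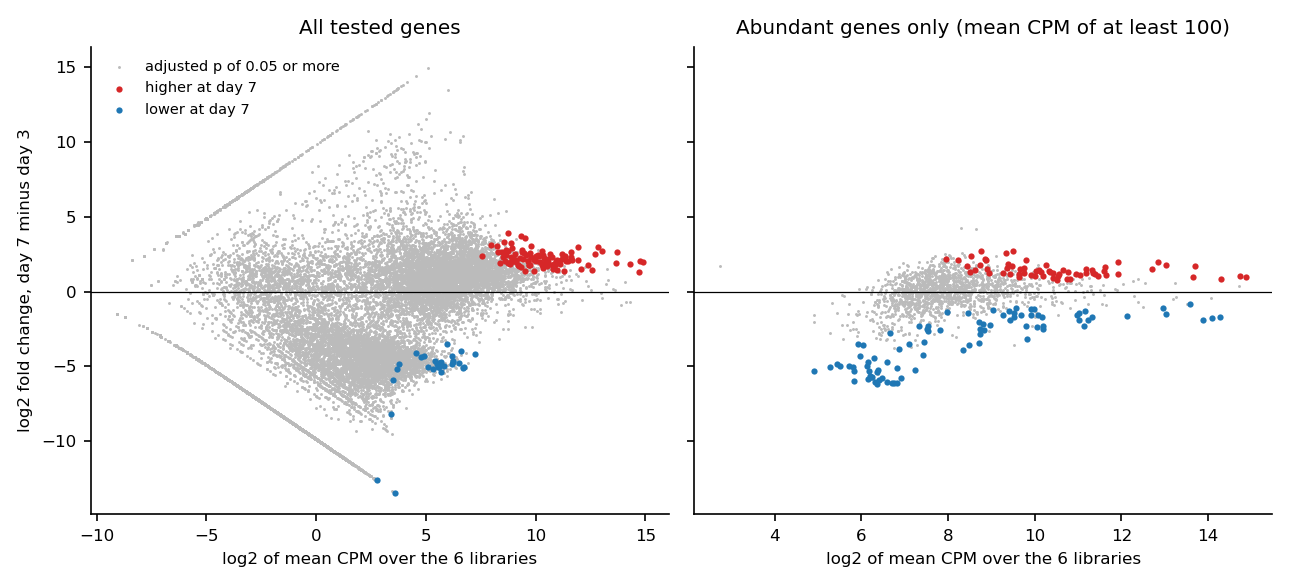
Log2 fold change, day 7 minus day 3 (y axis), against log2 of the mean CPM over the 6 ABX ICH libraries (x axis), for all tested genes on the left and for abundant genes scaled among themselves on the right. Each point is a gene, and colours mark an adjusted p under 0.05. On the left the 99 rises lie above 64 CPM and the 29 falls between 4 and 256 CPM, and on the right 64 genes are higher and 86 lower.

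The share of calls that were rises moved with the scaling. It was 77.3% in the fit over all tested genes, 56.2% with DESeq2 size factors (36 rises, 28 falls), 17.4% with scaling by total counts (28 and 133), 82.4% with GC offsets (56 and 12), 42.7% in the abundant-gene fit and 25.0% there with GC offsets (14 and 42). It was 71.3% in limma voom (249 and 100) and 22.3% in DESeq2 (1108 and 3858). Single libraries also moved the count of 128. Without day 3 replicates 1, 2 and 3 the calls numbered 35, 55 and 12, and without day 7 replicates 1 and 3 they numbered 57 and 562, while 126 were left without day 7 replicate 2. Without the 7 of the 27 libraries with fewer than 12000 detected genes, among them replicates 1 and 2 of day 7, 789 genes rose and 973 fell, with 89 of the 99 rises and 26 of the 29 falls among them, but replicate 3 then stands alone for day 7. Libraries of the other groups enter the same fit. The count also moved by over 1.5 times without GF ICH day 7 replicate 3 (138 rises, 103 falls), GF ICH day 3 replicates 1 and 3 (70 and 12, and 69 and 12) and SPF ICH day 3 replicates 1 and 3 (70 and 13, and 71 and 14). Called genes differed in GC content, with a median of 43.1% for the rises, 52.8% for the falls and 49.0% for all tested genes. Over the 1649 abundant genes with a GC value, GC content and the day difference had a Spearman correlation of −0.52, or 0.07 with GC offsets. Of the 99 and 29 calls, 31 and 11 were also called with GC offsets.

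A core of 11 rises and 1 fall was called whichever of the 6 libraries was left out. P2ry12, Gpr34, Cst3, Ctss, B2m, Cd9, Cd53, Serinc3, Selenop and Calm2 are the rises described here, and Slc35b2 is the fall. All 12 were also called with DESeq2 size factors, with total counts, among abundant genes and in DESeq2. With GC offsets 11 were called (not P2ry12, edgeR adjusted p = 0.0503), and in limma voom 11 (not Slc35b2, limma voom adjusted p = 0.0954). In the abundant-gene fit with GC offsets 6 of the 12 passed: B2m, Cd9, Serinc3, Selenop, Cst3 and Slc35b2. This core was picked out after its values were seen.

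P2ry12, the nucleotide receptor by which microglial processes find ATP, at chr3:59216272-59262871 (GRCm38, as are all positions here), stood at 2479.6, 2163 and 1173 CPM at day 3 and 18484, 7226 and 8432 CPM at day 7. All 3 day 7 libraries lay above the 3 of day 3, with replicate 1 the highest. Their range took in the sham level of 10547 ± 1427 CPM (mean ± SD, n = 3). The factors of the scaling over all tested genes (TMM) were 0.48 to 0.84 at day 7 and 1.15 to 1.29 in sham. Smaller factors raise CPM, so the place of day 7 against sham depends on the scaling. The rise was 2.55 ± 0.37 (edgeR adjusted p = 0.00104) on the log2 scale over all tested genes, given here and below ± SE, and 1.53 (edgeR adjusted p = 0.00216) among abundant genes. In bulk RNA a change in the number of cells of a type and a change in RNA per cell cannot be told apart. Gpr34, a receptor for lysophosphatidylserine at chrX:13632089-13640858, stood at 1025, 1119 and 515 CPM at day 3 and 11229.9, 4684 and 4772 CPM at day 7, a rise of 2.96 ± 0.36 (edgeR adjusted p = 0.000138), or 1.95 among abundant genes. Cst3, the protease inhibitor cystatin C at chr2:148871722-148875692, stood at 9085, 10255 and 7282 CPM at day 3 and 44792, 22946 and 27283 CPM at day 7, a rise of 1.84 ± 0.26 (edgeR adjusted p = 0.000898). Among abundant genes it rose 0.84 (edgeR adjusted p = 0.0381), a call that held in 1 of 6 fits with 1 library left out (highest edgeR adjusted p = 0.161). Cst3 is rich in G and C, at 57.2%, unlike most of the rises, and passed in the abundant-gene fit with GC offsets (edgeR adjusted p = 0.000273), where P2ry12 and Gpr34 did not (edgeR adjusted p = 0.373 and 0.143).

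Ctss, the lysosomal protease cathepsin S, at chr3:95526786-95556403, stood at 12454, 11581 and 7891 CPM at day 3 and 57849.5, 35282 and 38811 CPM at day 7. The days did not overlap, and the rise was 2.05 ± 0.28 (edgeR adjusted p = 0.000735), or 1.07 (edgeR adjusted p = 0.00577) among abundant genes, where it did not pass with GC offsets (edgeR adjusted p = 0.108). The tetraspanin Cd9, which organises membrane receptors, at chr6:125460266-125494791, stood at 1572, 1789.5 and 1014 CPM at day 3 and 7406, 5446 and 6283 CPM at day 7, a rise of 2.13 ± 0.30 (edgeR adjusted p = 0.000898). The sham level of 1538 ± 190.5 CPM lay within the day 3 range, so every day 7 library lay above both. Cd53, another tetraspanin of leukocytes, at chr3:106759921-106790149, rose 2.41 ± 0.33 (edgeR adjusted p = 0.000735), the membrane protein gene Serinc3, at chr2:163623272-163645131, 2.97 ± 0.42 (edgeR adjusted p = 0.000898), the selenium carrier Selenop, at chr15:3268547-3280508, 2.62 ± 0.40 (edgeR adjusted p = 0.00142), and the calmodulin gene Calm2, at chr17:87433412-87446935, 2.04 ± 0.31 (edgeR adjusted p = 0.00132). Among abundant genes with GC offsets Cd53 and Calm2 did not pass (edgeR adjusted p = 0.206 and 0.339).

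Slc35b2, the Golgi transporter of the sulfate donor PAPS, at chr17:45563874-45567671, stood at 338, 101 and 169 CPM at day 3 and 4.6, 1.66 and 11.8 CPM at day 7. The day 7 libraries lay far below day 3 and below the sham level of 184 ± 36 CPM. The fall was −5.07 ± 0.90 (edgeR adjusted p = 0.00512) over all tested genes and −6.11 (edgeR adjusted p = 0.000298) among abundant genes, and it stood with GC offsets there too (edgeR adjusted p = 0.000273). In limma voom it did not pass (limma voom adjusted p = 0.0954).

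**Figure D2:**
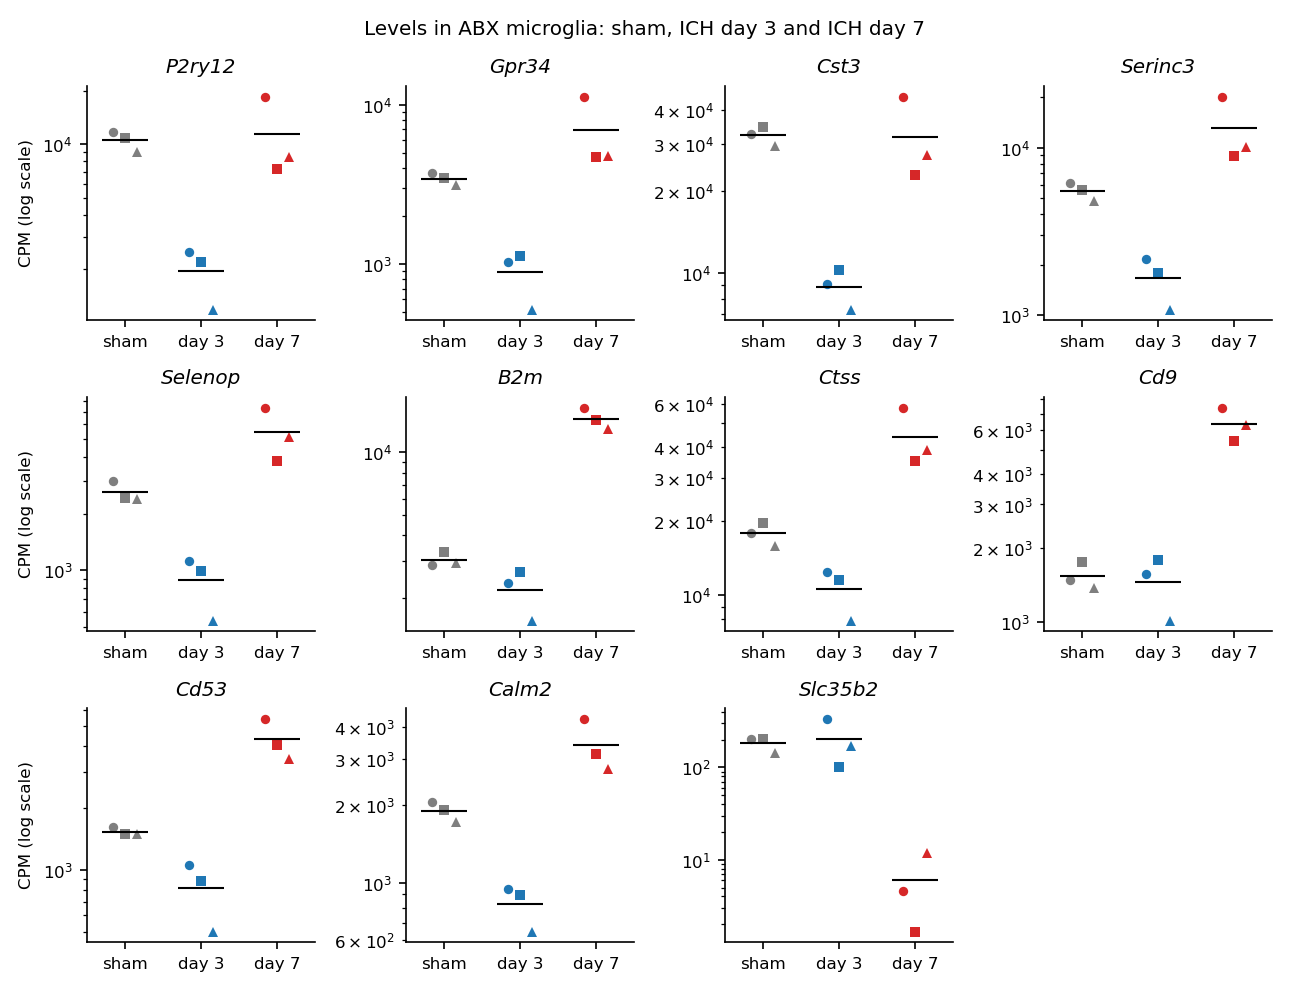
CPM on a log scale (y axis) of 11 of the genes called whichever library was left out, in ABX sham, ICH day 3 and ICH day 7 (x axis). Each point is a library, with circles, squares and triangles for replicates 1, 2 and 3, and bars are group means. For Slc35b2 all day 7 points lie below all day 3 points, and for the other genes shown all lie above.

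Of 20 homeostatic microglia genes tested, 6 rose and none fell over all tested genes, with P2ry12, Gpr34, P2ry13, Siglech and Cst3 among the rises. The libraries did not overlap for 7 of the 20 upward and for none downward, and 19 of the 20 are abundant genes, of which 33.8% did not overlap upward. P2ry13, a receptor for ADP, stood at 845, 827 and 393 CPM at day 3 and 6501, 2231 and 3194 CPM at day 7, a rise of 2.53 ± 0.42 (edgeR adjusted p = 0.00318). Siglech, a sialic acid receptor of microglia, stood at 839, 877 and 633 CPM at day 3 and 4402, 1733 and 2302 CPM at day 7, a rise of 1.84 ± 0.33 (edgeR adjusted p = 0.00522). On this scale the day 7 libraries lay around the sham levels of 3354 ± 829.6 CPM and 2327 ± 332 CPM. As for P2ry12, their place against sham depends on the scaling. Cx3cr1, the receptor for the neuronal chemokine fractalkine, stood at 3074, 2831 and 3404 CPM at day 3 and 3681, 1117 and 1287 CPM at day 7, and the days overlapped. It gave −0.61 (edgeR adjusted p = 0.371) over all tested genes and −1.69 (edgeR adjusted p = 0.0136) among abundant genes, where it was called lower, in 3 of 6 fits with 1 library left out (highest edgeR adjusted p = 0.0602) and with GC offsets (edgeR adjusted p = 0.0294). Tmem119, a microglial membrane protein, stood at 2358, 438 and 897 CPM at day 3 and 1724, 245 and 543 CPM at day 7 and passed on neither scale (−0.56, edgeR adjusted p = 0.615, and −1.70, edgeR adjusted p = 0.137 among abundant genes). The median of the list was 0.17 over all tested genes and −0.90 among its 19 abundant members, beside −0.33 and 0.09 for all genes. Among abundant genes the same 6 were higher and Cx3cr1 and Sparc were lower. The abundant-gene calls of P2ry13 and Siglech held in 4 of 6 fits each with 1 library left out. With GC offsets Siglech did not pass over all tested genes (edgeR adjusted p = 0.0871), nor P2ry13 and Siglech among abundant genes (edgeR adjusted p = 0.138 and 0.503).

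The ratio of a pair of genes within a library does not depend on scaling. The pairs were chosen after the values were seen, so that they separate the days is no sign of stability. P2ry12 over Cx3cr1 was 0.807, 0.764 and 0.345 at day 3 and 5.02, 6.47 and 6.55 at day 7, against 2.75, 2.2 and 1.72 in sham. The day 7 ratios lay above both other groups. Ctss over Ctsd, the protease cathepsin D, was 0.386, 0.803 and 0.434 at day 3 and 2.33, 7.1 and 3.49 at day 7, and Cd9 over Cd68, a lysosomal membrane protein, was 0.553, 0.773 and 0.483 at day 3 and 4.51, 3.2 and 3.46 at day 7. In each of these pairs the gene in the numerator has the lower GC content, 38.6% against 50.3% for P2ry12 and Cx3cr1, 46% against 55.9% for Ctss and Ctsd and 45.9% against 52.9% for Cd9 and Cd68, and the part of GC content in the ratios was not tested. Ftl1 over Cst3, a pair of near-equal GC content at 58.1% and 57.2%, was 2.29, 2.63 and 3.48 at day 3 and 0.469, 0.272 and 0.697 at day 7, against 0.113, 0.141 and 0.0983 in sham. Here day 7 lay between day 3 and sham with no overlap. Spp1 over Apoe, also computed and not plotted, was 0.327, 1.26 and 0.244 at day 3 and 1, 3.6 and 2.77 at day 7, with overlap.

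**Figure D3:**
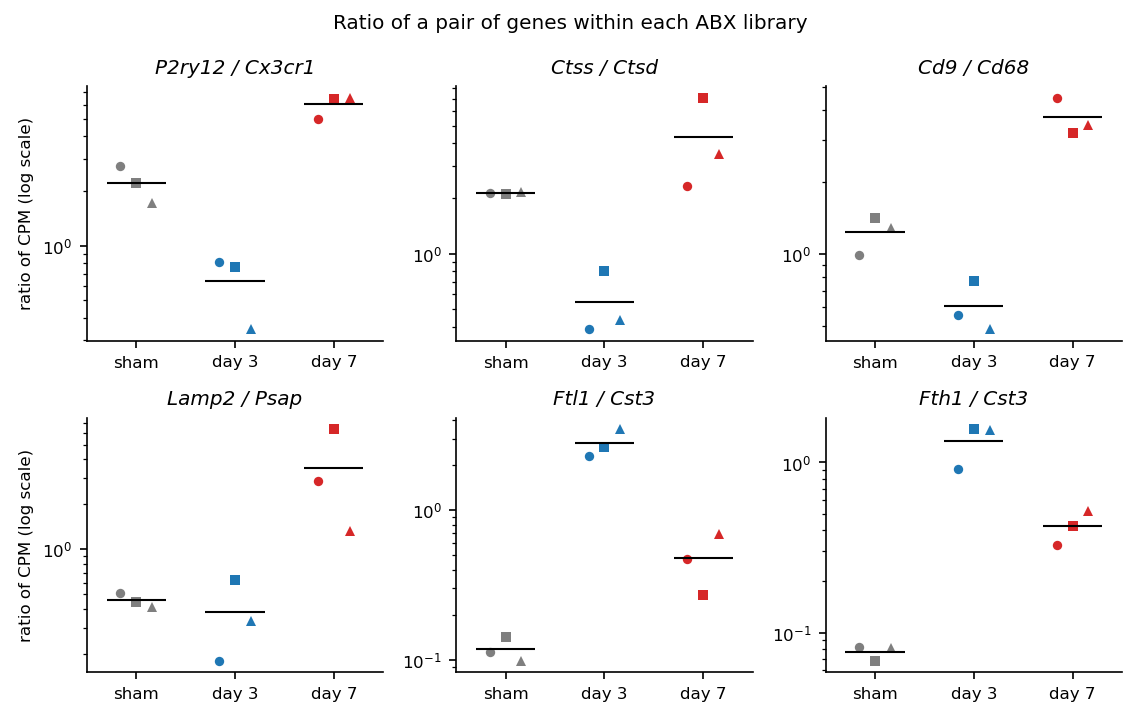
Ratio of the CPM of a pair of genes within each library (y axis, log scale) in ABX sham, ICH day 3 and ICH day 7 (x axis). Points are libraries, with circles, squares and triangles for replicates 1, 2 and 3, and bars are group means. The pairs plotted were chosen after the values were seen, and day 7 lies above day 3 for the first 4 and below it for the ferritin chains over Cst3.

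Genes of the disease-associated programme gave 6 rises and no fall among 23 tested: Spp1, Clec7a, Cd9, Ctsl, Lyz2 and Ccl6. Of all tested genes 0.563% rose, and all 99 rises were among the 1656 abundant genes, which 17 of these 23 are. Spp1, which encodes the secreted adhesion protein osteopontin, at chr5:104435118-104441050, stood at 2313, 6155 and 2417 CPM at day 3 and 21879.8, 17497 and 30107 CPM at day 7 against 53.2 ± 20 CPM in sham. Even the lowest day 7 library held more than the highest of day 3, and the rise was 2.67 ± 0.58 (edgeR adjusted p = 0.0238), or 1.75 (edgeR adjusted p = 0.0435) among abundant genes. Clec7a, the beta-glucan receptor Dectin-1, which the annotation lists as a polymorphic pseudogene, stood at 120.2, 154 and 55.5 CPM at day 3 and 1152, 1712 and 1127 CPM at day 7, a rise of 3.60 ± 0.69 (edgeR adjusted p = 0.0089). Lyz2, the lysozyme of myeloid cells, and Ctsl, the protease cathepsin L, rose 1.81 (edgeR adjusted p = 0.0175) and 1.45 (edgeR adjusted p = 0.0384), and neither passed among abundant genes (edgeR adjusted p = 0.097 and 0.304). Apoe, the lipid carrier, stood at 7067, 4881 and 9889.7 CPM at day 3 and 21812, 4864 and 10888 CPM at day 7, with overlap between the days and 0.78 (edgeR adjusted p = 0.293). Cst7, which inhibits lysosomal proteases, stood at 147, 209.8 and 100 CPM at day 3 and 1279, 823 and 814 CPM at day 7, with no overlap, and did not pass (2.67, edgeR adjusted p = 0.0858). Among abundant genes Spp1, Clec7a, Cd9 and Ccl6 were higher and Cd68, Ctsd and Ctsz lower. The call of Spp1 held in 3 of 6 fits with 1 library left out, that of Clec7a in 4 of 6, with the highest edgeR adjusted p without ABX ICH day 3 replicate 3, at 0.19 and 0.12. With GC offsets Spp1, Clec7a and Ctsl did not pass (edgeR adjusted p = 0.0664, 0.0587 and 0.181). The abundant-gene calls of Spp1 and Clec7a held in 2 of 6 and 5 of 6 fits with 1 library left out and those of Cd68, Ctsd and Ctsz in 4 of 6, 4 of 6 and 6 of 6, and with GC offsets none of these 5 passed there (edgeR adjusted p = 0.202, 0.129, 0.361, 0.25 and 0.306).

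Chemokines rose as 3 of 15 tested, with none falling, and a median of 1.95 over all tested genes and 1.67 among the 6 abundant members. Of all tested genes 0.563% rose, and of the 1656 abundant genes 99 did. Ccl4, which attracts monocytes and T cells, stood at 80.4, 105 and 81.3 CPM at day 3 and 1841, 301 and 428 CPM at day 7, with replicate 1 of day 7 far above the others, and rose 3.27 ± 0.73 (edgeR adjusted p = 0.0307). Ccl9 and Ccl6, chemokines of mouse myeloid cells, stood at 194, 225 and 87.8 CPM at day 3 and 1368, 1060.2 and 1105 CPM at day 7, and at 179.7, 274 and 157 CPM at day 3 and 962, 1447 and 1242 CPM at day 7. Their day 7 libraries lay close together, and the rises were 2.80 ± 0.47 (edgeR adjusted p = 0.00331) and 2.58 ± 0.46 (edgeR adjusted p = 0.00512). Ccl3, close in sequence to Ccl4, went from 72.8, 74.1 and 63.2 to 514, 383 and 369.8 CPM and did not pass (2.59, edgeR adjusted p = 0.0701), and reads of the pair may be shared. Ccl12, a monocyte attractant, stood at 324, 321 and 274 CPM at day 3 and 752, 758 and 1321 CPM at day 7 and did not pass (1.62, edgeR adjusted p = 0.163). The call of Ccl4 held in 2 of 6 fits with 1 library left out, of Ccl6 in 4 of 6 and of Ccl9 in 5 of 6. Among abundant genes all 3 were higher, Ccl4 in 2 of 6 such fits, and with GC offsets there none passed (edgeR adjusted p = 0.0634, 0.0574 and 0.081).

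Inflammatory cytokine and inflammasome genes gave 1 fall and no rise among 17 tested. The fall was Icam1, the adhesion molecule that leukocytes bind, at 178, 74.6 and 47.5 CPM at day 3 and 0.759, 0.415 and 6.12 CPM at day 7, −5.36 ± 1.12 (edgeR adjusted p = 0.0199), which held in 2 of 6 fits with 1 library left out and did not pass with GC offsets (edgeR adjusted p = 0.0699). Il1b stood at 5.76, 20.8 and 54.3 CPM at day 3 and 0.664, 0.0361 and 3.75 CPM at day 7 and Tnf at 10.9, 19.4 and 22.5 CPM at day 3 and 0.379, 0.469 and 2.34 CPM at day 7. Both were lower in every day 7 library, at levels under 60 CPM, and did not pass (−4.18, edgeR adjusted p = 0.226 and −4.05, edgeR adjusted p = 0.293). Casp1, the caspase that cleaves the interleukin-1 precursor, stood at 141, 101 and 69.4 CPM at day 3 and 735, 427 and 199 CPM at day 7 and did not pass (2.13, edgeR adjusted p = 0.195).

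B2m encodes beta-2 microglobulin, the chain shared by MHC class I molecules, and lies at chr2:122147686-122153083. It had the smallest p of any tested gene. It stood at 2347, 2648 and 1552 CPM at day 3 and 16397, 14238 and 12911 CPM at day 7 against 3048 ± 246 CPM in sham. The 3 day 7 libraries lay close together and far above all others, a rise of 2.73 ± 0.29 (edgeR adjusted p = 2.15e-05), or 1.80 (edgeR adjusted p = 0.000242) among abundant genes, and it passed with GC offsets there (edgeR adjusted p = 0.0167). The heavy chains did not go with it. H2-K1 stood at 770, 357 and 636 CPM at day 3 and 1379, 513 and 494 CPM at day 7 (0.44, edgeR adjusted p = 0.504) and H2-D1 at 1425, 423 and 633 CPM at day 3 and 1455, 659 and 973 CPM at day 7 (0.32, edgeR adjusted p = 0.685). Reads of these similar genes may be shared. B2m is poorer in G and C, at 41.2%, than H2-K1 at 54.3% or H2-D1 at 55.9%. Tap1, a subunit of the peptide transporter, stood at 88.1, 12.8 and 26.4 CPM at day 3 and 0.664, 0.307 and 1.86 CPM at day 7 and did not pass (−5.49, edgeR adjusted p = 0.112). In all 1 of 19 class I and peptide loading genes rose and none fell.

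The interferon list had the highest median of the 24 functional lists, 2.74 over all tested genes and 1.78 among its 10 abundant members, with 25 of 26 above 0 beside 7036 of all 17573, and none passed. The libraries did not overlap for 8 upward and 1 downward, beside 6.29% and 18.1% of all tested genes and 33.8% and 5.13% of abundant genes. Slfn2, a regulator of immune cell quiescence, stood at 99.8, 131 and 83.8 CPM at day 3 and 893, 274 and 726 CPM at day 7 (2.59, edgeR adjusted p = 0.0561). Trim30a, a restriction factor, stood at 40.6, 55.1 and 32.1 CPM at day 3 and 1029.6, 169.9 and 65.8 CPM at day 7 (3.31, edgeR adjusted p = 0.0624). Both were higher in all 3 day 7 libraries, but in others such as Ifit3, at 86.2, 58.7 and 31.7 to 29, 481 and 987 CPM, and Isg15, at 4.07, 5.47 and 0.606 to 0.379, 33.7 and 77.3 CPM, replicate 1 of day 7 was low while replicates 2 and 3 were high. Irgm1, an interferon-inducible GTPase that was not on the list, at chr11:48861968-48871683, stood at 110, 58.4 and 35 CPM at day 3 and 502, 649 and 882 CPM at day 7 and rose 3.32 ± 0.69 (edgeR adjusted p = 0.0185). That call held in 3 of 6 fits with 1 library left out, and among abundant genes in 2 of 6.

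Upstream sequence of B2m, Irgm1 and Trim30a is shown because interferon is known to act through an element of 2 GAAA copies set 2 bases apart, and these genes, of which B2m and Irgm1 rose and Trim30a did not pass, carry it close to their start. Each run is the 150 bases before the RefSeq start (GRCm38.p6), read 5′ to 3′ on the gene's strand, with capitals for the element on either strand, which reads as TTTC on the opposite one.
B2m, chr2:122147537-122147686, plus strand: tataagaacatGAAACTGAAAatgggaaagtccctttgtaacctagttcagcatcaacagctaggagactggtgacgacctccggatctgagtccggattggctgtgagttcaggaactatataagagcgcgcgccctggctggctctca
Irgm1, chr11:48871421-48871570, minus strand: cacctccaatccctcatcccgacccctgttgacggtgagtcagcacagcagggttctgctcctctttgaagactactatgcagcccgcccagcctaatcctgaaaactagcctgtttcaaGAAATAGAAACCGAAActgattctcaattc
Trim30a, chr7:104465194-104465343, minus strand: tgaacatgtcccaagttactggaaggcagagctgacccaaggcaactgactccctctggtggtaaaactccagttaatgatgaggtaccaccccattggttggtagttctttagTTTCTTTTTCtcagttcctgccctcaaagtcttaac
B2m and Trim30a each hold 1 copy, starting 139 and 36 bases before the start, and Irgm1 holds 2 that overlap, the first starting 30 bases before the start. With 1 promoter a gene, from 250 bases before to 50 after the start, searched on both strands, the element was found in 12 of the 19 interferon list genes with a sequence (63.2%), in 8 of 74 rises (10.8%), in 0 of 26 falls (0.0%) and in 943 of all 27025 promoters (3.49%). CCAAT was in 6 of 7 MHC class II promoters (85.7%) and 21 of 24 cell cycle promoters (87.5%), against 37.9% of all. TTTGAA, the core of the cell cycle homology region, was in 13 of 24 cell cycle promoters (54.2%) and 18.1% of all.

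MHC class II genes, which present antigen to CD4 T cells, gave no call among 10 tested. H2-Aa stood at 115, 453 and 392 CPM at day 3 and 926, 1714 and 2792 CPM at day 7, higher in every day 7 library, and did not pass (2.50, edgeR adjusted p = 0.201). H2-Ab1 stood at 309, 735 and 1198 CPM at day 3 and 1086, 924 and 2188 CPM at day 7, with overlap (0.91, edgeR adjusted p = 0.469). Against sham levels of 10.8 ± 11.2 CPM and 14.7 ± 1.92 CPM, both were high on both days. The list's median was 1.13, or 0.16 among the 6 abundant members.

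Lysosome genes split. Of 28 tested, 4 rose, with Lamp2, Ctsl and Ctss among them, and 1 fell, Glb1. Lamp2, a membrane protein of the lysosome needed for autophagy, stood at 797, 1061 and 645 CPM at day 3 and 5427, 3369 and 2743 CPM at day 7 and rose 2.20 ± 0.35 (edgeR adjusted p = 0.00232). Glb1, the lysosomal beta-galactosidase, stood at 244, 77 and 94.3 CPM at day 3 and 1.56, 1.17 and 11.9 CPM at day 7, all 3 day 7 libraries below sham and day 3, and fell by 4.82 ± 0.94 (edgeR adjusted p = 0.0104). Among abundant genes 3 of 26 were higher, with Lamp2 and Ctss among them, and 10 lower, with Ctsd at −1.77 (edgeR adjusted p = 0.0136), Psap, the precursor of saposins, at −1.90 (edgeR adjusted p = 0.0111), Grn, the precursor of granulins, at −2.31 (edgeR adjusted p = 0.00395), and Npc1, the cholesterol exporter, at −6.06 (edgeR adjusted p = 0.00475). Of these Ctsd, Psap and Grn overlapped between the days on the scale over all tested genes, and Npc1 did not. With GC offsets Ctsd, Psap and Grn did not pass (edgeR adjusted p = 0.25, 0.193 and 0.151), while Npc1 and Glb1 did (edgeR adjusted p = 0.0106 and 0.00153). Lamp2 passed with GC offsets on neither scale (edgeR adjusted p = 0.0505, and 0.583 among abundant genes), and the abundant-gene call of Psap held in 4 of 6 fits with 1 library left out.

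Receptors and bridges of phagocytosis gave 4 rises and no fall among 20 tested, beside 0.563% rises of all tested genes. The 20 include 12 abundant genes, and all 99 rises were among the 1656 abundant genes. Fcgr3, an activating receptor for the Fc part of IgG, stood at 2543, 2271 and 1800.2 CPM at day 3 and 8265, 4428 and 6039 CPM at day 7 and rose 1.50 (edgeR adjusted p = 0.00512). Fcgr2b, the inhibitory Fc receptor, rose 1.39 (edgeR adjusted p = 0.0393), and Havcr2, a receptor known as Tim-3, 1.94 (edgeR adjusted p = 0.0216). Pros1, the bridge of dying cells to Mertk and Axl, stood at 489, 335 and 260.3 CPM at day 3 and 2316, 1192 and 1182 CPM at day 7 and rose 2.11 (edgeR adjusted p = 0.0216). Of the 4 Pros1 alone also passed among abundant genes (1.11, edgeR adjusted p = 0.0262). Gas6, the other bridge to those receptors, went from 395, 89.1 and 181 to 3.13, 0.884 and 15.7 CPM; it did not pass over all tested genes (−5.07, edgeR adjusted p = 0.101) and was called lower among abundant genes (−6.11, edgeR adjusted p = 0.00885). Trem2, the lipid-sensing receptor, stood at 1979, 1621 and 1901 CPM at day 3 and 2188, 771 and 2373 CPM at day 7 (−0.05, edgeR adjusted p = 1). The Fc receptor genes are close in sequence, so their counts are uncertain. The calls of Fcgr2b, Havcr2 and Pros1 held in 1 of 6, 2 of 6 and 2 of 6 fits with 1 library left out, and that of Fcgr3 in 5 of 6. With GC offsets Fcgr3 passed over all tested genes (edgeR adjusted p = 0.00906) and Fcgr2b, Havcr2 and Pros1 did not (edgeR adjusted p = 0.172, 0.103 and 0.141). The abundant-gene call of Pros1 held in 3 of 6 fits with 1 library left out, and with GC offsets neither Pros1 nor Gas6 passed there (edgeR adjusted p = 0.474 and 0.0536).

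Complement gave 1 rise and 1 fall among 14 tested, and the fall is described here. Itgam, which encodes CD11b, a chain of complement receptor 3 carried by microglia and other myeloid cells, stood at 155, 63.6 and 217 CPM at day 3 and 2.94, 0.397 and 13.9 CPM at day 7 and fell by 4.66 ± 1.00 (edgeR adjusted p = 0.0221), below the sham level of 68.4 ± 9.79 CPM. The C1q chains, made by microglia, did not pass over all tested genes, with C1qa at 0.40 (edgeR adjusted p = 0.506) and C1qb at −0.43 (edgeR adjusted p = 0.422), and C1qb was lower among abundant genes (−1.48, edgeR adjusted p = 0.0103), though not with GC offsets (edgeR adjusted p = 0.556). The call of Itgam held in 2 of 6 fits with 1 library left out. Itgam has a GC content of 48.9% and was also called with GC offsets among abundant genes (edgeR adjusted p = 0.00243). The part of library makeup in its fall was not tested.

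Heme and iron genes gave no call among 23 tested. Hmox1, the heme oxygenase, stood at 1422, 1004 and 1279 CPM at day 3 and 474, 5.02 and 227 CPM at day 7 against 28.2 ± 5.02 CPM in sham. Every day 7 library lay below every day 3 library, with replicate 2 of day 7 lowest, and Hmox1 did not pass on either scale (−2.39, edgeR adjusted p = 0.238, and −3.57, edgeR adjusted p = 0.0731 among abundant genes). Ftl1 stood at 20832, 26935 and 25375 CPM at day 3 and 21028, 6242 and 19003 CPM at day 7 and Fth1 at 8321, 16109 and 11226 CPM at day 3 and 14719, 9692 and 14099 CPM at day 7, with overlap for both. Over all tested genes they gave −0.66 (edgeR adjusted p = 0.277) and 0.11 (edgeR adjusted p = 0.883), and among abundant genes both were lower, at −1.71 (edgeR adjusted p = 0.00513) and −0.86 (edgeR adjusted p = 0.0342), a reversal of sign for Fth1. Neither passed with GC offsets there (edgeR adjusted p = 0.202 and 0.11). Ferritin pseudogenes lie close in sequence, so reads of Ftl1 may be shared. Pcbp1, an iron chaperone of ferritin, was also lower among abundant genes (−3.83, edgeR adjusted p = 0.0279), though not with GC offsets (edgeR adjusted p = 0.268). The abundant-gene calls of Fth1 and Pcbp1 each held in 2 of 6 fits with 1 library left out. Slc40a1, the iron exporter ferroportin, stood at 169, 173 and 49.7 CPM at day 3 and 1539, 464 and 494 CPM at day 7 and did not pass (2.67, edgeR adjusted p = 0.212). Antioxidant and ferroptosis defence genes gave no call among 23, with Keap1, the inhibitor of Nrf2, at 30.3, 22.6 and 28.5 CPM at day 3 and 0.332, 0 and 1.6 CPM at day 7 (−5.39, edgeR adjusted p = 0.12).

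Lipid handling gave 1 rise among 23 tested, Lpcat2, which makes platelet-activating factor and remodels phospholipids. It stood at 1217, 805 and 628 CPM at day 3 and 7249.6, 3259 and 2479 CPM at day 7 and rose 2.29 ± 0.36 (edgeR adjusted p = 0.00228), or 1.27 (edgeR adjusted p = 0.00639) among abundant genes, and passed with GC offsets there (edgeR adjusted p = 0.0459). The call held in 5 of 6 fits with 1 library left out (edgeR adjusted p = 0.0548 without ABX ICH day 3 replicate 3), and in 5 of 6 among abundant genes. Abcg1, a cholesterol exporter, stood at 265, 56.4 and 156 CPM at day 3 and 1.71, 12.7 and 7.32 CPM at day 7; it did not pass over all tested genes (−4.45, edgeR adjusted p = 0.0639) and was lower among abundant genes (−5.26, edgeR adjusted p = 0.00625). Cholesterol synthesis genes gave no call among 20, with a median of −2.27 and 6 members whose libraries did not overlap, all lower, beside 18.1% of all tested genes. Hmgcs1, an early enzyme of the path, stood at 20.4, 14 and 12.6 CPM at day 3 and 698, 110.2 and 1.94 CPM at day 7, with replicates 1 and 2 of day 7 above day 3 and replicate 3 below (4.11, edgeR adjusted p = 0.2).

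Transcripts of the mitochondrial genome gave 5 rises and no fall among 13 tested: mt-Cytb, mt-Nd1, mt-Atp8, mt-Atp6 and mt-Co2. Of all tested genes 0.563% rose, but of the 141 genes above 1024 CPM 52 did. All 99 rises were among the 1656 abundant genes, which 12 of the 13 are. mt-Cytb, a subunit of complex III, stood at 1345, 1278 and 1031 CPM at day 3 and 6596, 4213 and 4874 CPM at day 7 and rose 2.10 ± 0.35 (edgeR adjusted p = 0.00318). The complex I gene mt-Nd1 stood at 649, 821 and 814 CPM at day 3 and 2071, 3335 and 3889.9 CPM at day 7 and rose 2.03 ± 0.35 (edgeR adjusted p = 0.00461). Of the 5, mt-Cytb and mt-Atp8 passed among abundant genes, in 5 of 6 and 1 of 6 fits with 1 library left out. With GC offsets none of the 5 passed, with mt-Cytb and mt-Nd1 at edgeR adjusted p = 0.0706 and 0.144, and among abundant genes mt-Cytb then gave 0.22 (edgeR adjusted p = 0.737). Mitochondrial transcripts made up 1.12%, 1.83% and 2.19% of all counts at day 3 and 1.94%, 3.52% and 3.42% at day 7, with overlap, and they are low in GC content. Nuclear copies such as Gm10925 and Gm28661 share their sequence, so counts of mt-Atp6 and mt-Co2 are uncertain. Nuclear genes of oxidative phosphorylation gave no call among 26. All 26 were above 0 and 11 did not overlap, all higher, and 23 of the 26 are abundant genes, of which 33.8% did not overlap upward, and the list had a median of 1.04 over all tested genes and 0.10 among its abundant members. Uqcrb, of complex III, stood at 89.5, 129.8 and 87.8 CPM at day 3 and 675, 276 and 315 CPM at day 7 (2.04, edgeR adjusted p = 0.105). Glycolysis and hypoxia genes gave no call among 24, with a median of −1.27. Aldoa, the glycolytic aldolase, stood at 1574, 1228 and 1718 CPM at day 3 and 40.6, 393 and 464 CPM at day 7, lower in every day 7 library; it did not pass (−2.33, edgeR adjusted p = 0.059) and was lower among abundant genes (−3.17, edgeR adjusted p = 0.00216), though not with GC offsets (−1.76, edgeR adjusted p = 0.124).

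Cell cycle genes gave no call among 30 tested, and 16 did not overlap, all lower, beside 18.1% of all tested genes. The median was −2.73 over all tested genes and −0.95 among the 5 abundant members. Mki67, a marker of dividing cells, stood at 17.2, 51.8 and 115 CPM at day 3 and 0.569, 23.4 and 2.21 CPM at day 7 against 0.324 ± 0.457 CPM in sham (−2.81, edgeR adjusted p = 0.281). Birc5, or survivin, stood at 85.7, 132 and 143 CPM at day 3 and 1.28, 0.65 and 8.09 CPM at day 7 (−5.17, edgeR adjusted p = 0.139). Stmn1, a regulator of microtubules at a higher level, stood at 377, 729 and 786 CPM at day 3 and 237, 374 and 179 CPM at day 7; it did not pass over all tested genes (−1.26, edgeR adjusted p = 0.2) and was lower among abundant genes, also with GC offsets (−2.13, edgeR adjusted p = 0.00639, and edgeR adjusted p = 0.0459). A pair of genes outside the lists, Cenpw and Tbcd, had 0 counts in all 3 day 7 libraries and were called as falls. Cenpw, a centromere protein, stood at 6.92, 20.5 and 13.1 CPM at day 3, which against 3 counts per library is at least 147-fold lower at day 7. Tbcd, a tubulin chaperone, went from 44, 13.7 and 14.4 CPM, at least 262-fold lower. Tbcd passed in 4 of 6 fits with 1 library left out and Cenpw in none.

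Immediate early and dissociation stress genes gave no call among 24, with a median of −2.04. Dusp1, a phosphatase induced by stress, stood at 73.6, 111 and 59.6 CPM at day 3 and 3.7, 1.43 and 11.6 CPM at day 7 (−3.87, edgeR adjusted p = 0.0801), and it was lower among abundant genes with Ier2 and Zfp36 (−4.86, edgeR adjusted p = 0.00462, −4.97, edgeR adjusted p = 0.0342 and −4.20, edgeR adjusted p = 0.0157). Those calls held in 6 of 6, 2 of 6 and 5 of 6 fits with 1 library left out, and with GC offsets Dusp1 alone passed (edgeR adjusted p = 0.0276, 0.104 and 0.125). Genes that sense or use short-chain fatty acids gave no call among 14. The receptor gene Ffar2 did not pass the filter on low counts. Hcar2, a receptor for butyrate and ketone bodies, stood at 113, 108 and 28.4 CPM at day 3 and 0.948, 98.2 and 15 CPM at day 7, with overlap (−1.13, edgeR adjusted p = 0.647). Slc16a3, an exporter of lactate, stood at 157, 65.6 and 61.2 CPM at day 3 and 1.66, 0.217 and 5.96 CPM at day 7 (−5.18, edgeR adjusted p = 0.155). Endoplasmic reticulum folding, TGF-beta signalling and alternative activation genes gave no call among 20, 15 and 16. Of 24 growth factor and matrix genes 1 rose, Spp1, which the disease-associated list also holds. Tgfbr1, the type I receptor of TGF-beta, stood at 156, 268 and 228 CPM at day 3 and 428, 981 and 914 CPM at day 7 (1.83, edgeR adjusted p = 0.0945).

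**Figure D4:**
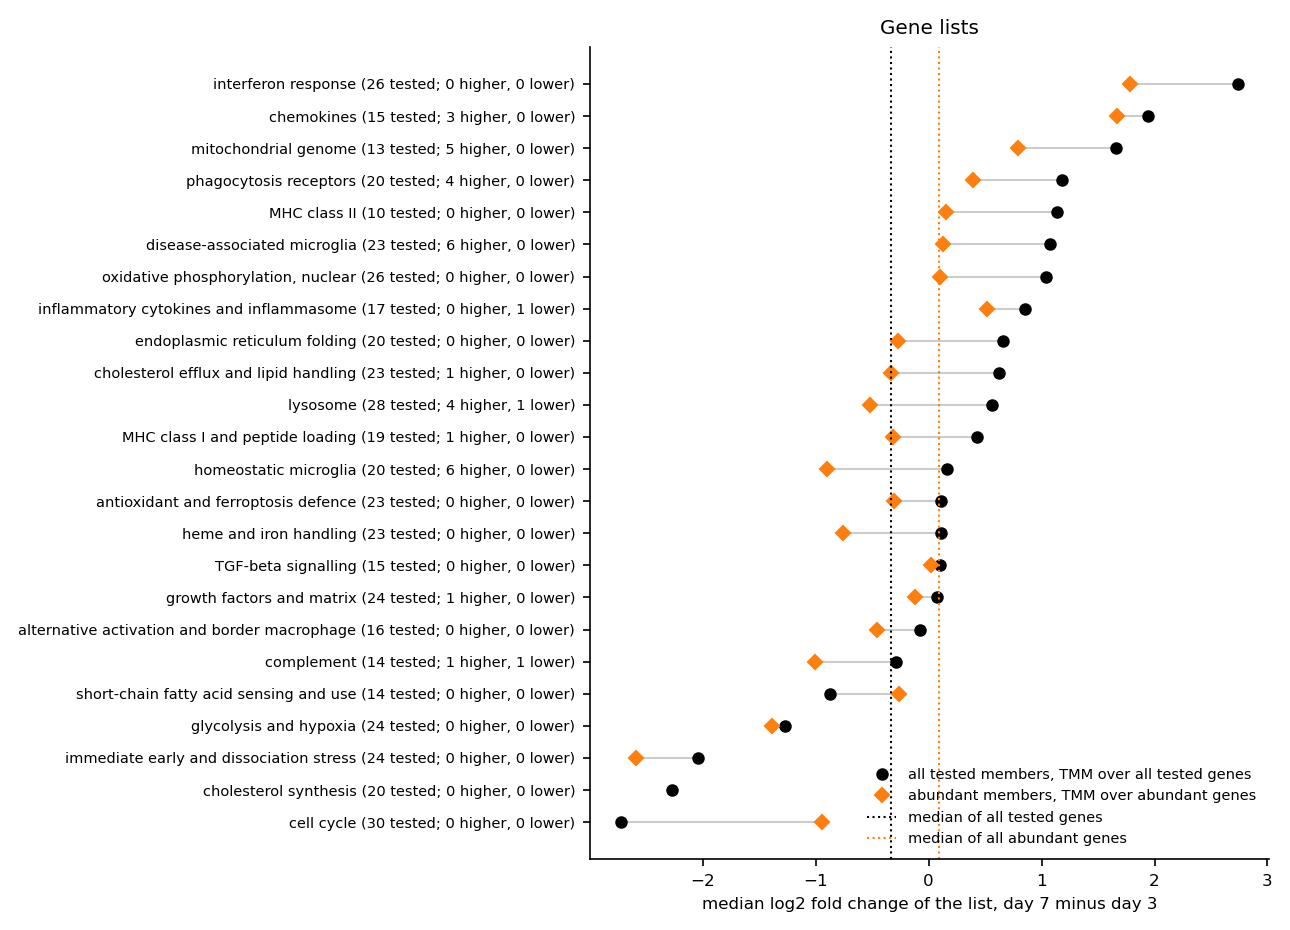
Median log2 fold change, day 7 minus day 3 (x axis), of each of the 24 functional lists (y axis). Black circles are all tested members scaled over all tested genes, orange diamonds the abundant members scaled among abundant genes, and dotted lines the medians of all genes, −0.33 and 0.09. The interferon list is farthest to the right on both scales at 2.74 and 1.78, and cell cycle farthest to the left over all tested genes at −2.73.

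By size, the rises over all tested genes at a mean log2 CPM of at least 4 were led by Ddx50, an RNA helicase of the nucleolus, at 66.6, 57.1 and 36.1 CPM at day 3 and 2029.8, 91 and 319.5 CPM at day 7 (3.93, edgeR adjusted p = 0.049996). Next was Pla2g4a, the cytosolic phospholipase that frees arachidonic acid, at 91.9, 99.9 and 79.3 CPM at day 3 and 2926, 235 and 474 CPM at day 7 (3.75, edgeR adjusted p = 0.014). In both, replicate 1 of day 7 lay far above replicates 2 and 3, which were themselves above day 3. Each call held in 2 of 6 fits with 1 library left out, and neither passed with GC offsets (edgeR adjusted p = 0.163 and 0.055). Irgm1 and Ccl4, given above, came after them. Serinc1, a relative of Serinc3, stood at 237, 219.8 and 113 CPM at day 3 and 1968, 1684 and 1114 CPM at day 7, and rose 3.06 ± 0.50 (edgeR adjusted p = 0.00283). Osbpl9, an oxysterol-binding protein relative, rose 3.05 (edgeR adjusted p = 0.0199), and Arhgap5, which turns off small GTPases, 2.93 (edgeR adjusted p = 0.0486), though Arhgap5 did not pass among abundant genes (edgeR adjusted p = 0.0917). Serinc3, Gpr34 and Ccl9 were also among the 10. The calls of Osbpl9 and Arhgap5 each held in 2 of 6 fits with 1 library left out and were lost with GC offsets (edgeR adjusted p = 0.0503 and 0.233).

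The 10 largest falls at that level include Slc35b2, Glb1 and Itgam, given above. The others were Rps6ka1, a kinase downstream of ERK, at 375, 83 and 170.4 CPM at day 3 and 3.75, 1.14 and 13.8 CPM at day 7 (−5.07, edgeR adjusted p = 0.0443), and the genes that follow. Commd9 stood at 138, 234 and 147 CPM at day 3 and 2.7, 0.668 and 15.6 CPM at day 7 (−4.77, edgeR adjusted p = 0.0382). Spag7 stood at 93.2, 198 and 142 CPM at day 3 and 2.47, 0.902 and 12.9 CPM at day 7 (−4.73, edgeR adjusted p = 0.0349). Pacsin2, which bends membranes, fell by 4.30 (edgeR adjusted p = 0.0209), and Cndp2, a dipeptidase, −4.18 (edgeR adjusted p = 0.0385). Fermt3, or kindlin-3, which activates integrins, stood at 397, 63 and 82.4 CPM at day 3 and 3.03, 20 and 12.3 CPM at day 7 and fell by 3.94 (edgeR adjusted p = 0.0212). Inpp5d, the phosphatase SHIP1, stood at 179, 54.6 and 109.8 CPM at day 3 and 1.9, 17.7 and 11.2 CPM at day 7 and fell by 3.48 (edgeR adjusted p = 0.0496). In each of these genes all day 7 libraries lay under all day 3 libraries, and replicate 1 or replicate 2 of day 7, with the fewest detected genes, was the lowest. All 7 were also lower among abundant genes, from −6.11 to −4.28, whichever library was left out and with GC offsets, though over all tested genes none of them passed with GC offsets (edgeR adjusted p = 0.059 for Pacsin2 to 0.168 for Inpp5d). The calls of Rps6ka1, Commd9, Spag7 and Cndp2 each held in 1 of 6 fits with 1 library left out, of Pacsin2 in 2 of 6, of Fermt3 in 3 of 6 and of Inpp5d in none.

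No tested marker of another cell type was called. The summed level of 10 microglial markers was 35708, 26148 and 21305 CPM at day 3 and 113742, 57697 and 67743 CPM at day 7. The sum of 11 monocyte markers was 62.6, 108 and 107 CPM at day 3 and 18.5, 585 and 1031 CPM at day 7, with 2 to 3 and 0 to 2 of them at 0. Ccr2, the receptor that draws monocytes to tissue, stood at 0.596, 14.8 and 6.75 CPM at day 3 and 3.03, 133 and 674 CPM at day 7. So replicates 2 and 3 of day 7 held more monocyte transcripts than any day 3 library and replicate 1 held less. Border macrophage markers summed to 86.1 to 205 CPM at day 3 and 2.13 to 215 CPM at day 7 (2 to 4 and 1 to 5 of 10 at 0). Dendritic cell markers summed to 49.9 to 120 and 4.88 to 411 CPM (2 to 3 and 3 to 5 of 7 at 0), T and NK cell markers to 14.8 to 26.8 and 20.9 to 380 CPM (4 and 3 to 5 of 12 at 0) and B cell markers to 249 to 648 and 235 to 1046 CPM (4 to 5 and 3 to 5 of 8 at 0). All of these overlapped between the days. Neutrophil markers summed to 66 to 197 and 131 to 249 CPM (5 to 9 and 3 to 9 of 12 at 0) and erythroid markers to 92.8 to 217 and 249 to 1102 CPM (3 and 2 to 3 of 7 at 0), the latter with no overlap on this scale. That gap depends on the scaling factors, 1.12 to 1.25 at day 3 and 0.48 to 0.84 at day 7. Over library totals alone the erythroid sums of the days overlapped. Choroid plexus markers summed to 552 to 3112 and 1374 to 8201 CPM, oligodendrocyte markers to 142 to 216 and 80.7 to 1434 CPM, and astrocyte markers to 80.4 to 112 and 107 to 500 CPM, of which 0 to 2 and 1 to 3 of 7, 2 to 3 and 2 to 4 of 8, and 0 to 3 and 1 to 3 of 8 were at 0. Endothelial markers summed to at most 14.8 CPM (4 to 6 and 5 to 6 of 8 at 0) and neuron markers to at most 6.51 CPM (6 to 8 and 2 to 9 of 9 at 0) in the 6 libraries. Their part in the changes was not tested.

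To ask whether the change from day 3 to day 7 depended on the microbiota, it was compared with the same change in SPF and in GF mice, each with its own libraries. Against SPF mice edgeR called 0 genes more positive (0.0%) and 0 more negative (0.0%) in ABX mice, with 2350 at an unadjusted p under 0.05. DESeq2 called 427 and 1794, limma voom 27 and 18, and the abundant-gene fit of edgeR 0 and 3. Without ABX ICH day 7 replicate 3 edgeR called 0 and 5. The core genes changed more in ABX mice by their values, which did not pass. The core was picked by its change in the ABX libraries, so the choice itself favours a larger change there. Scaling factors also differed, at 0.48 to 0.84 at ABX day 7 and 1.04 to 1.14 at SPF day 7. The median difference in log2 change over all tested genes was −0.72. Library makeup differed between these arms. The SPF day 7 libraries hold 13992 to 16206 detected genes, against 10184 to 14221 at ABX day 7. The top minus lowest GC quintile gave −0.38 to 0.64 at SPF day 7 and −1.02 to −0.67 at ABX day 7. The part of library makeup in the differences was not tested. B2m stood at 2928 ± 605 CPM at day 3 and 5697 ± 1035 CPM at day 7 in SPF mice, against 2182 ± 566 CPM and 14515 ± 1759 CPM in ABX mice (mean ± SD, n = 3), a difference in log2 change of 1.77 ± 0.38 (edgeR adjusted p = 0.33). P2ry12 stood at 2410.2 ± 636 CPM and 4116 ± 1005 CPM in SPF mice, a difference of 1.78 ± 0.50 (edgeR adjusted p = 0.33). For Gpr34 the difference was 2.16 ± 0.47 (edgeR adjusted p = 0.33) and for Slc35b2 −4.40 ± 1.12 (edgeR adjusted p = 0.33).

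Against GF mice edgeR called 407 genes more positive (2.32%) and 23 more negative (0.131%) in ABX mice. The median difference in log2 change over all tested genes was 1.00. Differences as a whole thus lay above 0, and the values of single genes below stand beside that median. The GF day 7 libraries hold 9489, 11043 and 9185 detected genes, against 10184, 10997 and 14221 at ABX day 7. The top minus lowest GC quintile gave −2.76 to −1.60 at GF day 7 and −1.02 to −0.67 at ABX day 7. For core rises the difference in log2 change was 0.16 ± 0.38 (edgeR adjusted p = 1) for B2m, 0.41 ± 0.50 (edgeR adjusted p = 0.793) for P2ry12, −0.09 ± 0.47 (edgeR adjusted p = 1) for Gpr34 and −0.04 ± 0.41 (edgeR adjusted p = 1) for Cd9, and none passed. Cst3 differed by 1.38 ± 0.36 (edgeR adjusted p = 0.043), going from 15768 ± 5617 CPM to 21636 ± 2055 CPM in GF mice and from 8874 ± 1498 CPM to 31674 ± 11566 CPM in ABX mice. Cx3cr1 differed by 2.48 ± 0.63 (edgeR adjusted p = 0.0364) and Ftl1 by 2.07 ± 0.53 (edgeR adjusted p = 0.038), each lower at day 7 in GF than in ABX mice. Slc35b2 differed by −5.07 ± 1.13 (edgeR adjusted p = 0.0217), with 191 ± 123 CPM at day 7 in GF mice and 6.02 ± 5.21 CPM in ABX mice. Without ABX ICH day 3 replicates 1, 2 and 3 the calls numbered 50, 26 and 27, without GF ICH day 3 replicates 1, 2 and 3 they numbered 173, 206 and 213, and without GF ICH day 7 replicates 2 and 3 they numbered 832 and 192, in place of 430.

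**Figure D5:**
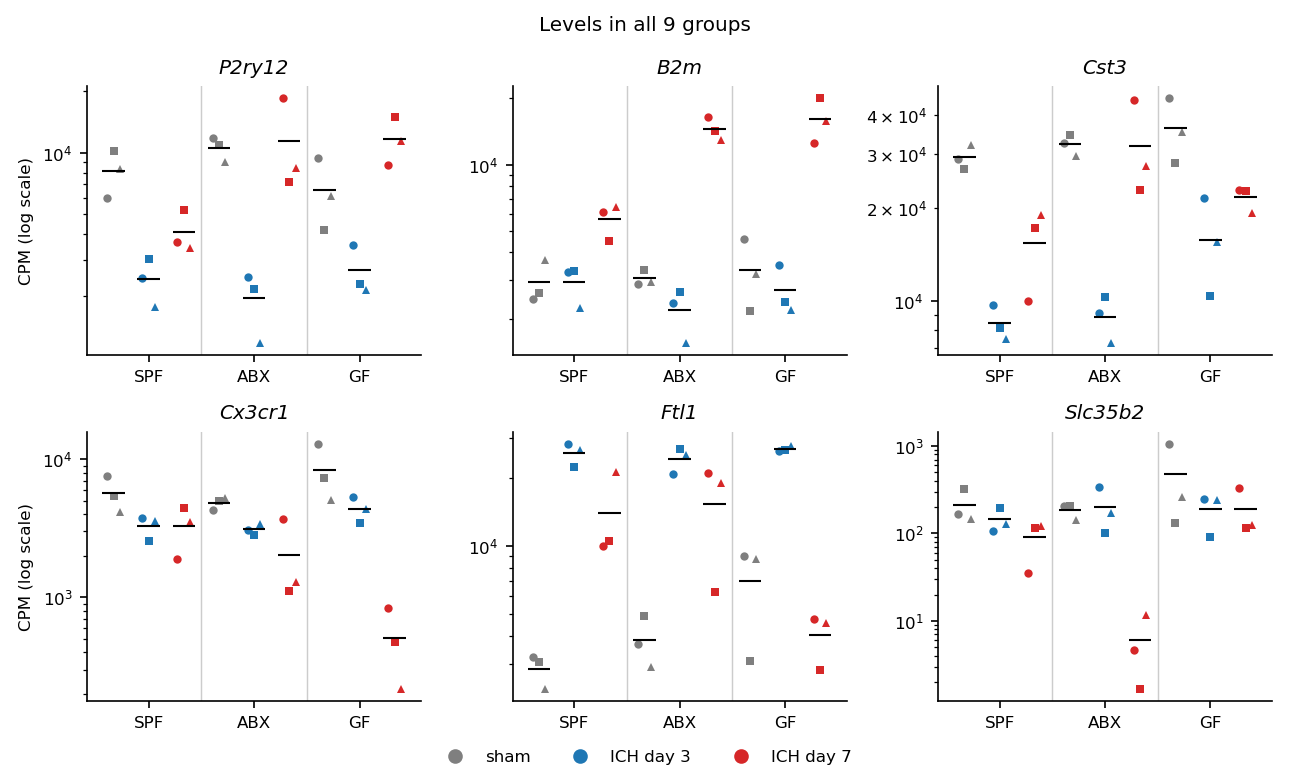
CPM on a log scale (y axis) of 6 genes in all 9 groups, by microbiota (x axis) and coloured as sham, ICH day 3 and ICH day 7. Points are libraries, with circles, squares and triangles for replicates 1, 2 and 3, and bars are group means. B2m at day 7 has means of 14515 CPM in ABX, 5697 CPM in SPF and 16083 CPM in GF mice, while Slc35b2 has means of 6.02, 90.7 and 191 CPM.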

How the data were processed

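RNA of sorted microglia was made into low-input SMART-Seq v4 libraries and sequenced as paired ends, per the labels' protocols. The deposited file is a table of raw counts for 56691 Ensembl mouse gene identifiers in 27 libraries. Cutadapt 1.9, HISAT2 2.0.4, StringTie 1.3.4d and edgeR are named with build mm10 per the submitters' processing notes, and the annotation release and strand setting are not given in the sources used here, so genes that overlap cannot be told apart. GENCODE M21 gave symbols and positions for 52073 identifiers. The 4618 without a symbol carry 1.27% of counts.

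Sample groups follow the labels. The filter filterByExpr kept 17573 genes and 99.94% of counts. edgeR 4.0.16 (R 4.3.3) fitted a robust quasi-likelihood model to the 9 groups of all 27 libraries with TMM scaling, which shares the spread of all groups, and p-values were Benjamini-Hochberg adjusted over all tested genes with a threshold of 0.05. The standard error is the log2 fold change divided by the root of the F statistic. Differences between microbiota arms were interaction terms of the same fit. The abundant-gene fit kept genes with a mean of at least 100 CPM over the 27 libraries. GC offsets were a spline of 6 degrees of freedom per library on the GC content of exons, known for 96.0% of tested genes. The CPM values, those of the marker sums included, are counts over library totals multiplied by the TMM factors. These factors were 1.12 to 1.25 at ABX ICH day 3 and 0.48 to 0.84 at ABX ICH day 7. CPM at day 7 are therefore higher against day 3 than counts over library totals alone would give. The code was tested on simulated data, with changes placed in genes of at least 100 CPM at day 3. The day comparison called 0%, 1.2% and 32.5% of changes of 1, 2 and 4 on the log2 scale. Genes that did not pass may therefore have changed.

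The members and the 24 functional and 13 marker lists were chosen with earlier results of these data known. Named are the 10 largest rises and falls whose libraries did not overlap between the days, at 4 or more in mean log2 CPM, leaving out predicted genes and pseudogenes, the 2 members of each list with the smallest p, a set of genes always named, and 3 genes in each direction for each interaction. Other list members that passed, the core genes and genes in the closing section were named after their values were seen. A few genes are counted but not reported here by name. Alternatives were DESeq2 1.42.0, its size factors, limma voom with quality weights (limma 3.58.1), GC offsets, no filter, a replicate block, the 6 libraries alone and leaving out each library, and, chosen after seeing the data, total counts, abundant genes with and without GC offsets, and leaving out 7 libraries. The compared libraries hold 44279690 to 79090595 counts. Bounds for genes with no counts cover counting error only, since reads without molecular identifiers are not independent molecules.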

Additional observations from a re-analysis of the deposited data

Results flagged for a closer look

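The change from day 3 to day 7 differed between ABX and GF mice in an interaction test of edgeR for 407 genes that were more positive in ABX mice and 23 that were more negative, each at an adjusted p under 0.05. Among genes described above these were Slc35b2 (−5.07, a difference in log2 change as are all values here), Cst3 (1.38), Lpcat2 (1.91), Cx3cr1 (2.48), Ftl1 (2.07) and Hmgcs1 (10.23). Over all tested genes the median was 1.00.

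The most positive were Liph, a phospholipase (10.71 ± 1.24, edgeR adjusted p = 3.96e-05), the actin regulator Coro1c (10.50 ± 1.97, edgeR adjusted p = 0.00829) and the splicing protein gene Snrpa (10.17, edgeR adjusted p = 0.00765). Coro1c stood at 104, 76 and 39.8 CPM at day 3 and 479, 27.5 and 87.4 CPM at day 7 in ABX mice, with 84.2 ± 21.1 CPM at day 3 and 0.153 ± 0.197 CPM at day 7 in GF mice (mean ± SD, n = 3). Liph stood at 61.1, 48.3 and 45 CPM at day 3 and 613, 111 and 241 CPM at day 7 in ABX mice, with 75.5 ± 16.8 CPM and 0.28 ± 0.0935 CPM in GF mice. The most negative were Azin1, an inhibitor of antizyme (−7.73 ± 1.70, edgeR adjusted p = 0.0216), Orc3, a subunit of the origin recognition complex (−6.48 ± 1.65, edgeR adjusted p = 0.0364), and Katna1, a microtubule-severing enzyme (−6.05 ± 1.62, edgeR adjusted p = 0.047). Azin1 stood at 36.7, 40.6 and 29.7 CPM at day 3 and 1.09, 0.866 and 3.1 CPM at day 7 in ABX mice, with 20.1 ± 3.53 CPM and 201 ± 80.5 CPM in GF mice. Liph, Coro1c and Snrpa lay near 0 in GF day 7 libraries, which hold 9185 to 11043 detected genes, and the part of the number of detected genes in these differences was not tested.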

How the results depend on the processing

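Over all tested genes the day comparison called 128 genes. The count was 4966 in DESeq2, 349 in limma voom, 64 with DESeq2 size factors, 68 with GC offsets, 56 among abundant genes with GC offsets, 31 with no filter on low counts, 1 in the 6 ABX ICH libraries alone and 1762 without the 7 libraries under 12000 detected genes. It stayed within 1.5 times of 128 with total counts (161) and among abundant genes (150). Leaving out 1 of the 6 libraries gave 12 to 562 calls, and each of these 6 but day 7 replicate 2 moved it by over 1.5 times. The labels do not say whether same-numbered libraries are paired. Their deviations from the group means had correlations of 0.05, 0.18 and −0.02, which with 3 libraries a group cannot decide it. A replicate block gave 95 calls, and with GC offsets 42. For the same 2 settings the GF difference gave 230 and 141 calls and the SPF difference 0.

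The SPF difference of 0 calls became 2221 in DESeq2, 45 in limma voom, 3 among abundant genes, 2 there with GC offsets and 673 without the 7 libraries, and 0 to 5 with 1 library left out (5 without ABX ICH day 7 replicate 3). The GF difference of 430 became 3838 in DESeq2, 57 in limma voom, 55 among abundant genes, 51 there with GC offsets, and 26 to 832 with 1 library left out; it could not be fitted without the 7 libraries, which hold all of GF ICH day 7. Of 107 named genes, 18 lost their call with GC offsets, 11 with total counts, 8 with DESeq2 size factors, 20 with no filter and 34 in the 6 libraries alone. Fth1 turned from 0.11 to −0.86 among abundant genes, and Snrpa from 1.28 to −3.29 without the 7 libraries. The cause was not tested. Depth limits rare genes: Cenpw and Tbcd have no counts at day 7, so only a bound on their fold is known.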

Other observations

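Genes of the actin and tubulin skeleton, which were not on a list and were picked out after their values were seen, moved both ways among abundant genes. Actb, the main cytoplasmic actin, stood at 15219.5, 23846 and 19626 CPM at day 3 and 15330.2, 6272 and 10456 CPM at day 7, and was lower at −1.90 (edgeR adjusted p = 0.000716), though not over all tested genes (−0.87, edgeR adjusted p = 0.196). Lower too were Arpc1b, a subunit of the Arp2/3 complex that branches actin, at −2.32 (edgeR adjusted p = 0.00462), the filament coat protein Coro1a at −2.03 (edgeR adjusted p = 0.0332), and the alpha-tubulin genes Tuba1a, at 313, 150 and 235 CPM at day 3 and 30.4, 26.6 and 64.3 CPM at day 7 and −3.50 (edgeR adjusted p = 0.00311), and Tuba1c, at −2.54 (edgeR adjusted p = 0.00501). Higher were Actr3, another subunit of the Arp2/3 complex, at 180.2, 369 and 152 CPM at day 3 and 2664, 900.3 and 584 CPM at day 7 and 1.54 (edgeR adjusted p = 0.0464), Capza2, which caps filaments, at 1.18 (edgeR adjusted p = 0.00511), and the small GTPases Cdc42, at 0.87 (edgeR adjusted p = 0.0411), and Rap1b, at 0.92 (edgeR adjusted p = 0.0328). The lower genes have a GC content of 51.1% (Actb) to 58% (Coro1a) and the higher ones 43.8% (Actr3), 36.1% (Capza2), 42.6% (Cdc42) and 39.9% (Rap1b). With GC offsets Actb, Arpc1b and Tuba1a passed (edgeR adjusted p = 0.00414, 0.0188 and 0.023), while Coro1a, Tuba1c, Actr3, Capza2, Cdc42 and Rap1b did not (edgeR adjusted p = 0.317, 0.297, 0.297, 0.947, 0.722 and 0.884). The calls of Coro1a, Actr3 and Rap1b each held in 2 of 6 fits with 1 library left out, and that of Cdc42 in 1 of 6.

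A few genes that act early in the secretory path, picked out after their values were seen, were called over all tested genes, while the endoplasmic reticulum folding list gave no call among 20. Serp1, a partner of the translocon, stood at 465, 597 and 290.3 CPM at day 3 and 2411, 1337 and 2774 CPM at day 7, a rise of 2.27 ± 0.40 (edgeR adjusted p = 0.00461). Tram1, another translocon partner, stood at 271, 331 and 273 CPM at day 3 and 2552, 798 and 998 CPM at day 7, a rise of 2.31 ± 0.45 (edgeR adjusted p = 0.0104). Spcs2, of the signal peptidase, rose 1.72 (edgeR adjusted p = 0.0089), and Tmed2, a cargo receptor between endoplasmic reticulum and Golgi, 2.36 (edgeR adjusted p = 0.0109). In each the day 7 libraries lay above those of day 3. Among abundant genes all 4 were higher (edgeR adjusted p = 0.00577, 0.0136, 0.0447 and 0.00639), and with GC offsets none of the 4 passed there (edgeR adjusted p = 0.25, 0.307, 0.171 and 0.0815). Plek, the pleckstrin of leukocytes, stood at 301, 435 and 243 CPM at day 3 and 2082, 1645 and 2699 CPM at day 7 and rose 2.72 ± 0.46 (edgeR adjusted p = 0.00331). Rgs10, a brake on G-protein signals in microglia, stood at 386, 659 and 368 CPM at day 3 and 2600.3, 1551 and 1496 CPM at day 7 and rose 2.00 ± 0.36 (edgeR adjusted p = 0.00512). Both passed among abundant genes with GC offsets (edgeR adjusted p = 0.0141 and 0.0247).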
